A study of Mus musculus with 10 samples.

Results

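The genes described here encode acetylcholine receptors: the muscarinic receptors Chrm1, Chrm2, Chrm3 and Chrm4 and the nicotinic receptor subunits Chrna3, Chrna4, Chrna5, Chrna7 and Chrnb2. They were chosen by name, with earlier results of these data known, and are 9 of the 24421 gene symbols measured. All 9 passed the filter on low values, which kept genes averaging 0.5 CPM or more over the libraries. Their RNA was measured in the ventral hippocampus (vHpc) of adult female C57BL/6 mice, all of them ovariectomized (OVX). WT mice carried the normal Bdnf gene, and Het-Met mice carried 1 copy of a Met knock-in allele of Bdnf. After 2 weeks of recovery from surgery, mice of each genotype drank water with E2 (300 nM 17β-estradiol, about 0.7 µg per day, in 0.1% ethanol) or vehicle (0.1% ethanol) for 6 weeks. The 10 libraries fell into 4 groups, with 2 libraries for each treatment in OVX WT mice and 3 for each treatment in OVX Het-Met mice. Each library held RNA pooled from 2 animals, so the spread between libraries is that between pools and understates the spread between animals.

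Acetylcholine reaches the hippocampus mainly from cholinergic neurons of the basal forebrain, and it acts there on G protein-coupled muscarinic receptors and on nicotinic receptors, which are ion channels. The muscarinic receptors M1 and M3 couple to Gq and phospholipase C and close the M-current potassium channels of the Kcnq family, which raises neuronal excitability. M2 and M4 couple to Gi, lower cAMP and open inwardly rectifying potassium channels, and M2 also serves as an autoreceptor on cholinergic terminals. Nicotinic receptors are pentamers: α7 subunits can form a channel on their own, whereas α4 assembles with β2, often with α5 as an accessory subunit, and α3 usually with β4. E2 and BDNF both act on the hippocampus, and the question here was whether the receptors for acetylcholine differed with either.

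Reads counted on genes numbered between 19820184 and 23267410 per library, and 1 read was worth between 0.0430 and 0.0505 CPM (counts per 1000000 reads counted on genes). Each member therefore rested on many reads except the lowest: Chrm1 had 5901 to 7535 reads per library, Chrna7 had 387 to 614, Chrm2 had 25 to 79 and Chrna3 had 15 to 33. All 6 excitatory neuron markers and all 6 markers of the CA1 and CA3 fields were detected in every library, which fits the tissue label. The 12 choroid plexus markers were also present in all libraries, and their summed level ranged from 151 to 3275 CPM, the widest range of the 13 marker lists. In OVX WT mice given vehicle, replicate 1 had 151 and replicate 3 had 1087 CPM of these markers, and a chi-square per degree of freedom of 12.7 between their reads exceeded the 3.40 between the WT libraries given E2, within a range up to 14.1 over all replicate pairs. Of the 7 markers of basal forebrain cholinergic neurons, 2 were above 0 in every library, and the transmitter-synthesizing enzyme Chat had at most 0.190 CPM. In such bulk tissue, fewer cells of a type and less RNA per cell cannot be told apart.

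Because E2 acts through receptors that bind DNA at estrogen response elements, the promoters of the members were searched for the letters of that element. RefSeq (GRCm38.p6, the assembly also called mm10) held 9 start windows for 8 of the members, each with 250 bases before and 50 bases after the start. The windows of Chrna7 and Chrna4, the members with the smallest p-values below, are shown from 5′ to 3′ on the coding strand, with capitals for the element's half-site, GGTCA or its complement TGACC.
Chrna7, chr7:63212477-63212776, minus strand: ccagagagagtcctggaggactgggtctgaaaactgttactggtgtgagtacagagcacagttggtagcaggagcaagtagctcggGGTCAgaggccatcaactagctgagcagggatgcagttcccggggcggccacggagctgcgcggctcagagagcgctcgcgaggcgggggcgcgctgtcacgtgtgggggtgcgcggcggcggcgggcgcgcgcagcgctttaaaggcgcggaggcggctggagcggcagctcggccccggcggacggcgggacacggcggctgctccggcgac
Chrna4, chr2:181039128-181039427, minus strand: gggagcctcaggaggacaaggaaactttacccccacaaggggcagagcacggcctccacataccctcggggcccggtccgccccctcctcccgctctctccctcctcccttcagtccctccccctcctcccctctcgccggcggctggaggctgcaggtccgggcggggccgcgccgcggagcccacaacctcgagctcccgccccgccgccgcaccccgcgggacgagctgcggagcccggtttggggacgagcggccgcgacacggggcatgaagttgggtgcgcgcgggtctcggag
The Chrna7 window held 1 half-site, 164 bases before the start, and the Chrna4 window, which lies inside the GENCODE span of its gene, held none. On either strand, the full element, GGTCA followed by 3 bases of any kind and then TGACC, was in 0 of the 9 windows, against 0.0700% of the 32851 windows of all genes, and at least 1 half-site was in 6 of 9, against 40.5%. The GC box GGGCGG was in 7 of 9 windows, against 35.7%, and the windows of Chrna7 and Chrna4 had 70.0% and 74.3% G and C, against a median of 52.7%. The cAMP response element TGACGTCA and the EGR site GCGTGGGCG were in 0 of 9 windows, against 1.79% and 0.612%. The 6 windows with a half-site include both windows of Chrna5, and the window of Chrm4, which lies outside the GENCODE model of that gene. Such matches describe letters in these windows and do not show binding.

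Chrm1, the main postsynaptic muscarinic receptor of hippocampal pyramidal cells, was the most abundant member. Per kb of exon, which allows levels of different genes to be compared, it averaged 47.8 ± 2.52 CPM (SD, n = 10 libraries), 2.31 times the level of the next gene. Chrm4 followed at 20.7 ± 1.23 CPM per kb, but its gene model holds 1.44 kb of coding exon and no UTR, so its length is understated and its level per kb overstated. Chrnb2 at 10.1 ± 0.588, Chrna4 at 8.12 ± 1.28, Chrm3 at 5.58 ± 0.624 and Chrna7 at 4.86 ± 0.650 CPM per kb came next, in a run whose neighbours overlapped in range. Chrnb2 was above Chrna4, and Chrna4 above Chrm3, in 10 of 10 libraries, and Chrm3 was above Chrna7 in 8 of 10. Chrna5 at 1.53 ± 0.245, Chrm2 at 0.420 ± 0.135 and Chrna3 at 0.184 ± 0.0452 CPM per kb were the lowest members, and the ranges of Chrm2 and Chrna3 overlapped although Chrm2 was the higher in 10 of 10 libraries.

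**Figure D1:**
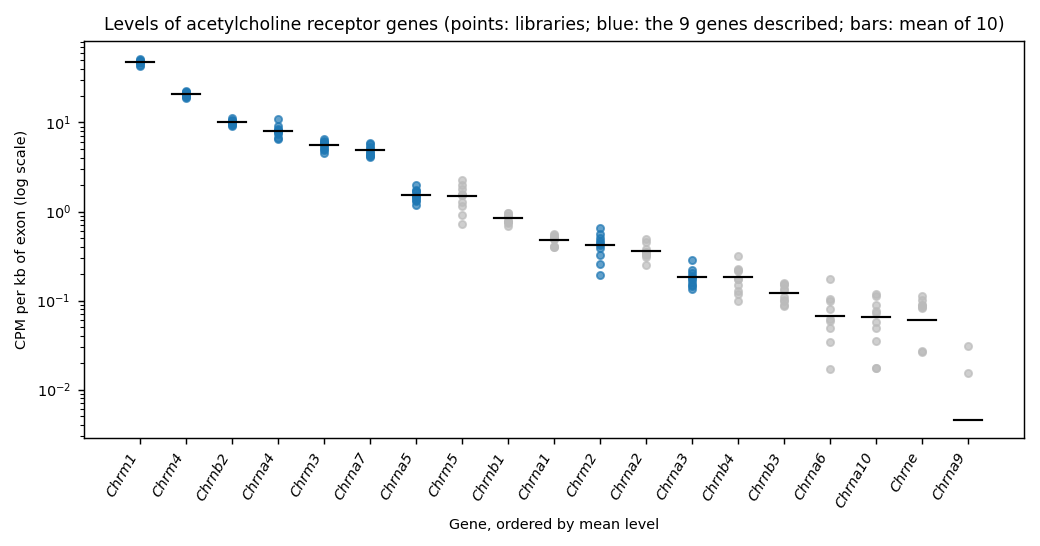
Level of each acetylcholine receptor gene in CPM per kb of exon on a log axis, with 1 point per library above 0 (blue for the 9 members, gray for other receptor genes) and a bar at the mean of 10 libraries. The members span from 47.8 for Chrm1 to 0.184 for Chrna3, and most other receptor genes lie below Chrna5.

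The 12 other acetylcholine receptor genes averaged less than Chrna5. Chrm5, the remaining muscarinic receptor, averaged 1.48 CPM per kb over a coding-only model of 1.60 kb, and the β1 subunit gene Chrnb1 averaged 0.837. Chrna1, Chrna2, Chrnb4 and Chrnb3 averaged between 0.121 and 0.483 CPM per kb. Chrna6, Chrna10, Chrne and Chrna9 averaged at most 0.0678, and the muscle-type subunits Chrnd and Chrng were at 0 reads in every library, which allows up to 3 reads, or between 0.129 and 0.151 CPM, by counting error alone. Per kb of exon, Chrm1 made up between 62.7% and 64.9% of the 4 muscarinic members, and the ratio of the Gq-coupled pair Chrm1 and Chrm3 to the Gi-coupled pair Chrm2 and Chrm4 was between 2.26 and 2.76 in the 10 libraries. The coding-only model of Chrm4 lowers both values. In CPM, without regard to length, the share was between 81.0% and 83.2% and the ratio between 9.70 and 11.3, with group means of the latter between 10.5 and 10.8.

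For every comparison below, limma was fitted to all 15081 genes past the filter. A gene was called where its p, adjusted by Benjamini and Hochberg's method, lay under 0.05 and its fold change also exceeded 1.3. None of the 9 members was called in any of the 7 comparisons. The background was low as well: 0.0133% of all genes were called for E2 in OVX WT mice, 0% for E2 in OVX Het-Met mice, 0.00663% and 0.0265% for genotype under vehicle and under E2, and 0.0729% for the interaction. Averaged over genotypes, 0.00663% were called for E2, and averaged over treatments, 0.0265% for genotype. At an unadjusted p-value under 0.05, Chrna7 was the single member for genotype, and it was lower. Under vehicle 10.7% of all genes reached that level (5.85% higher and 4.83% lower), under E2 11.7% (6.29% and 5.36%) and over both treatments 16.6% (9.33% and 7.27%).

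Chrna4 was the single member at an unadjusted p-value under 0.05 in the comparisons of treatment, and it was higher. This held for E2 in OVX Het-Met mice, where 5.45% of all genes reached that level (2.82% higher and 2.63% lower), for the interaction (5.42%, with 2.8% and 2.62%) and for E2 over both genotypes (3.22%, with 1.73% and 1.49%). No member reached it for E2 in OVX WT mice, where 4.04% of all genes did (2.37% and 1.66%). Comparisons that share a group share its libraries, so their values for a member are set side by side and are not independent.

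Chrm1 showed nearly equal levels in all groups. It had 322 and 307 CPM in OVX WT mice given vehicle, 313 and 324 in those given E2, 279.9, 313 and 337 in OVX Het-Met mice given vehicle and 306, 308 and 289.9 in those given E2. The Het-Met libraries of the vehicle group covered the range of all others, so the groups overlapped except under E2, where the Het-Met libraries were all below the WT libraries. Under E2 the genotypes did not overlap for 4 of 9 members and 35.8% of all genes, and 14.7% of all genes were lower in this way. The log2 fold change of Het-Met against WT over both treatments was -0.05 (95% interval -0.17 to 0.06, adjusted p = 0.665, limma), and that of E2 over both genotypes was -0.01 (-0.12 to 0.11). These intervals leave out a change of 1.3-fold in either direction.

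Chrm3, the other Gq-coupled member, varied more within groups. It had 31.4 and 40.8 CPM in OVX WT mice given vehicle and 38.3 and 35.1 in those given E2, and 28.5, 33.0 and 36.8 in OVX Het-Met mice given vehicle and 30.6, 37.7 and 36.8 in those given E2. All groups overlapped, and the log2 fold change of E2 was 0.03 (95% interval -0.27 to 0.33) in OVX WT and 0.09 (-0.15 to 0.34) in OVX Het-Met mice.

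Chrm4 and Chrm2 are the Gi-coupled members. Chrm4 lies on chromosome 2, 17.7 Mb from Bdnf. It had between 27.2 and 32.2 CPM in the 10 libraries, with group means between 29.4 and 30.4 CPM and overlapping groups in all comparisons. Its genotype log2 fold change over both treatments was 0.02 (95% interval -0.13 to 0.17). Chrm2 had 1.99 and 3.91 CPM in OVX WT mice given vehicle and 2.83 and 3.35 in those given E2, against 1.19, 3.03 and 1.58 in OVX Het-Met mice given vehicle and 2.54, 2.35 and 2.66 in those given E2. The Het-Met libraries were lower than the WT libraries under E2, and overlapped with them under vehicle. The genotype log2 fold change of Chrm2 over both treatments was -0.38, with a 95% interval from -0.81 to 0.04 (adjusted p = 0.346, limma). It depended on the vehicle libraries of both genotypes, with -0.59 without WT replicate 1 and -0.18 without WT replicate 3. Without Het-Met vehicle replicate 2 it was -0.54, and without Het-Met vehicle replicate 1 it was -0.27. At 541 reads in all 10 libraries together, counting error alone gives a coefficient of variation of about 13.6%, against 32.1% observed. A gene on the other strand, 9330158H04Rik, overlaps Chrm2, Gm26861 overlaps Chrm3, and Mdk overlaps Chrm4 in RefSeq, and since the strand setting of the counting is not given in the sources used here, reads of such pairs cannot be told apart.

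**Figure D2:**
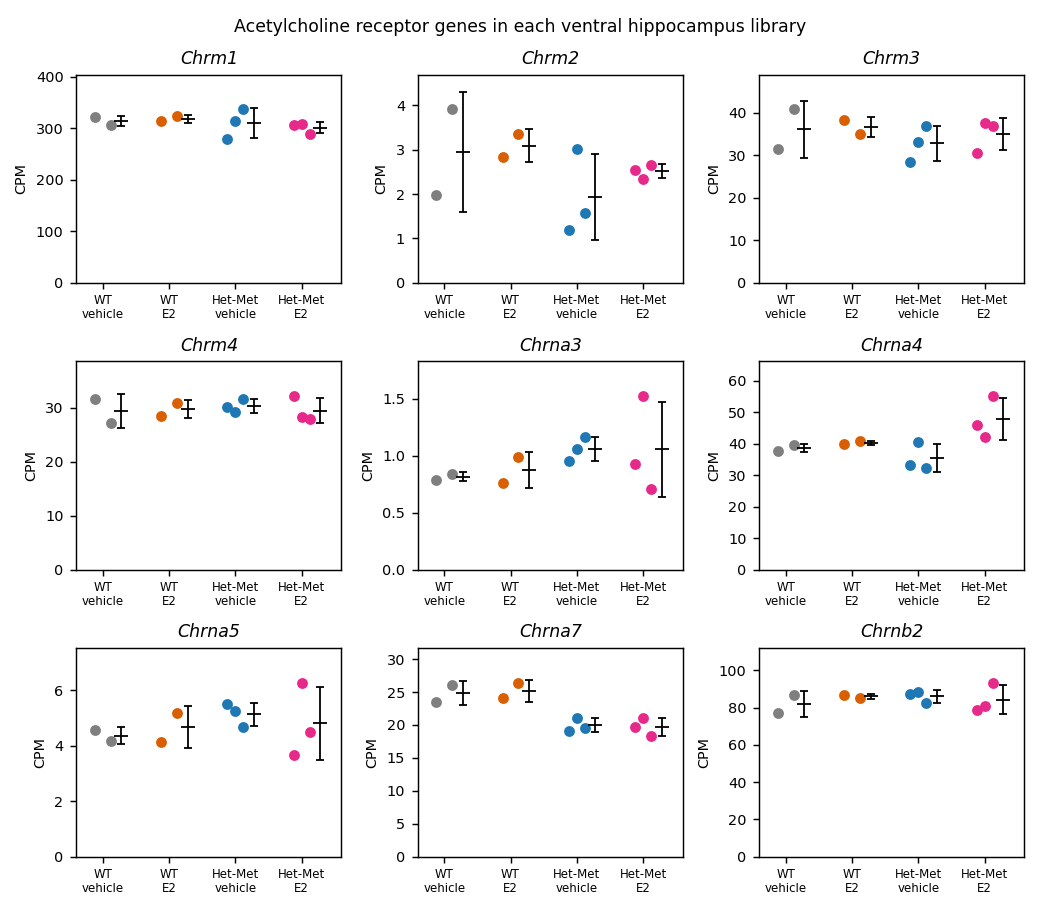
CPM of each member in each library (points), with the mean and SD of the group (black bars, n = 2 or 3) beside the points, on axes that start at 0. For Chrna7 all 6 Het-Met libraries lie between 18.4 and 21.1 CPM and all 4 WT libraries between 23.5 and 26.4, and for Chrna4 the E2-treated Het-Met libraries lie between 42.1 and 55.2 CPM.

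Chrna7 encodes the α7 subunit, a calcium-permeable channel found on hippocampal interneurons, pyramidal cells and presynaptic terminals. It lies on chromosome 7 of mm10 (63098692 to 63212569, minus strand) and spans 114 kb. Chrna7 was lower in every library of OVX Het-Met mice than in any of OVX WT mice, but the difference did not pass the test after adjustment. It had 23.5 and 26.1 CPM in OVX WT mice given vehicle and 24.0 and 26.4 in those given E2. It had 19.1, 21.1 and 19.6 CPM in OVX Het-Met mice given vehicle and 19.6, 21.1 and 18.4 in those given E2. The 6 Het-Met libraries were all below the 4 WT libraries, with 19.8 ± 1.10 CPM (SD, n = 6) against 25.0 ± 1.44 (SD, n = 4). Of all genes, 4.36% showed such a separation of genotypes, 2.63% higher and 1.72% lower in Het-Met mice.

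Over both treatments the log2 fold change of Chrna7 was -0.33 (standard error 0.07, 95% interval -0.48 to -0.18, unadjusted p = 0.000335, adjusted p = 0.118, limma), or 0.796 times the WT level. Under vehicle it was -0.31 (adjusted p = 0.357, limma) and under E2 -0.35 (adjusted p = 0.329, limma), and the interaction was -0.04 (95% interval -0.35 to 0.26). For E2 against vehicle, Chrna7 had a log2 fold change of 0.02 (-0.21 to 0.26) in OVX WT and -0.02 (-0.21 to 0.17) in OVX Het-Met mice. On the recovered whole reads, edgeR gave an adjusted p of 0.0937, and DESeq2 gave an adjusted p of 0.00756 with a log2 fold change of -0.36, still under the fold limit. By DESeq2, 1.96% of all genes reached an adjusted p under 0.05 in this comparison, and Chrna7 was the single member among them. Without replicate 2 of OVX Het-Met mice given vehicle, limma gave an adjusted p of 0.0468, and without the other libraries in turn between 0.0634 and 0.386.

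Long genes as a whole were lower in OVX Het-Met mice: genes of 100 to 300 kb had a median log2 fold change of -0.05 for genotype over both treatments, and genes under 10 kb had 0.08. With this trend with length removed, Chrna7 had a log2 fold change of -0.28 (unadjusted p = 0.00107, adjusted p = 0.186, limma). The summed excitatory neuron markers ranged from 7993 to 8172 CPM in OVX WT and from 7365 to 9020 in OVX Het-Met mice, and the inhibitory neuron markers from 1317 to 1394 and from 1211 to 1441, so both overlapped between genotypes. The medial habenula markers, 4 of 6 above 0 in every library, summed to between 83.6 and 90.1 CPM in the WT libraries, and in the Het-Met libraries to between 72.9 and 75.6 with vehicle and between 77.7 and 90.5 with E2. Most of that sum was Nwd2 (mean 56.3 CPM) and Lrrc55 (18.8 CPM), and the defining habenula gene Pou4f1 had at most 0.230 CPM. The part of tissue composition and of gene length in the Chrna7 difference was not tested beyond these values.

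Chrna4 encodes the α4 subunit of the high-affinity nicotinic receptor and lies on chromosome 2 (181018380 to 181043546, minus strand), 71.3 Mb from Bdnf. Chrna4 was higher with E2 in OVX Het-Met mice and nearly the same with E2 and vehicle in OVX WT mice, and neither difference passed the test after adjustment. It had 33.3, 40.5 and 32.4 CPM in OVX Het-Met mice given vehicle and 46.1, 42.1 and 55.2 in those given E2. In OVX WT mice it had 37.7 and 39.5 CPM with vehicle and 39.9 and 40.8 with E2. The E2-treated Het-Met libraries were above all 7 other libraries, and replicate 3 stood highest. Within Het-Met mice 10.3% of all genes had treatment groups that did not overlap (5.15% higher and 5.11% lower with E2), and in WT mice, where Chrna4 also did not overlap, 31.8% did.

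The log2 fold change of Chrna4 with E2 was 0.43 in OVX Het-Met mice (standard error 0.10, 95% interval 0.21 to 0.64, unadjusted p = 0.000831, adjusted p = 0.597, limma) and 0.06 in OVX WT mice (-0.20 to 0.33). The difference between these effects, the interaction, was 0.36 (standard error 0.16, unadjusted p = 0.0405, adjusted p = 0.865, limma). Without replicate 3 of OVX Het-Met mice given E2, the E2 effect was 0.32 (unadjusted p = 0.00623, limma) and the interaction 0.25 (unadjusted p = 0.106, limma). Leaving out each library in turn gave an interaction between 0.25 and 0.46, with an unadjusted p of 0.05 or more for 7 of the 10. The mean of log2(CPM + 0.5) over the choroid plexus markers was used as a covariate. With it, the E2 effect in OVX Het-Met mice was 0.37 (unadjusted p = 0.0128, limma). The interaction was then 0.22 (unadjusted p = 0.427, limma). These markers averaged higher with E2 in WT and lower in Het-Met mice, so this covariate and an interaction are hard to tell apart. The thalamus markers, all 8 above 0 in every library, summed to 137 to 152 CPM in OVX Het-Met mice given vehicle and 159 to 208 in those given E2, and to 147 to 162 in OVX WT mice. The thalamus, next to the hippocampus, is a site of high Chrna4. The same mean over the thalamus markers was used as a covariate, a step chosen after the data were seen. It gave an E2 effect in OVX Het-Met mice of 0.48 (unadjusted p = 0.0274, limma). The interaction was then 0.41 (unadjusted p = 0.0973, limma). The thalamus sums did not overlap between the Het-Met treatment groups, so this covariate and the E2 effect are hard to tell apart. The part of thalamic tissue in the Chrna4 difference was not tested beyond these values.

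Chrnb2, the β2 partner of α4, did not share the higher level of Chrna4 in OVX Het-Met mice given E2. It had between 77.3 and 93.3 CPM in the 10 libraries, with means of 82.1 CPM with vehicle and 86.1 with E2 in OVX WT mice, and of 86.1 and 84.3 in OVX Het-Met mice. With E2 in OVX Het-Met mice the log2 fold change of Chrnb2 was -0.03 (95% interval -0.19 to 0.13). The ratio of Chrna4 to Chrnb2 CPM within a library was therefore 0.411 ± 0.0407 in OVX Het-Met mice given vehicle and 0.566 ± 0.0397 in those given E2 (SD, n = 3 each), without overlap, and 0.471 ± 0.0237 and 0.469 ± 0.0152 in OVX WT mice (SD, n = 2 each). This ratio was not tested, since it restates the 2 genes. Within groups the genes varied together, with a Pearson r of 0.73 on the log2 scale over the 10 libraries and 0.31 with the group differences included, and the library with the highest Chrna4 also had the highest Chrnb2. Adar lies on the other strand over part of Chrnb2, so its reads may include some of that gene.

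Chrna5 and Chrna3 lie side by side on chromosome 9, and with Chrnb4 they form the α5-α3-β4 gene cluster. Chrna5 had 4.58 and 4.16 CPM in OVX WT mice given vehicle and 4.13 and 5.20 in those given E2, and 5.50, 5.25 and 4.68 in OVX Het-Met mice given vehicle and 3.67, 6.27 and 4.51 in those given E2. Chrna3 had 0.787 and 0.842 CPM in OVX WT mice given vehicle and 0.763 and 0.989 in those given E2, and 0.949, 1.06 and 1.16 in OVX Het-Met mice given vehicle and 0.930, 1.52 and 0.711 in those given E2. Both genes were higher in all 3 vehicle-treated Het-Met than in the vehicle-treated WT libraries, as 14.8% of all genes were, and both overlapped under E2. Under vehicle the genotypes did not overlap for these members and Chrna7, against 24.7% of all genes, and 9.89% of all genes were lower in this way, as Chrna7 was. Their genotype log2 fold changes under vehicle were 0.21 (95% interval -0.19 to 0.62) and 0.24 (-0.25 to 0.74), and adjusted p-values were 0.708 and 0.728 (limma). Replicate 2 of OVX Het-Met mice given E2 was the highest library for both, and their Pearson r over the 10 libraries was 0.69 on the log2 scale. In RefSeq the 2 genes overlap at their ends on opposite strands, so they may share reads.

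**Figure D3:**
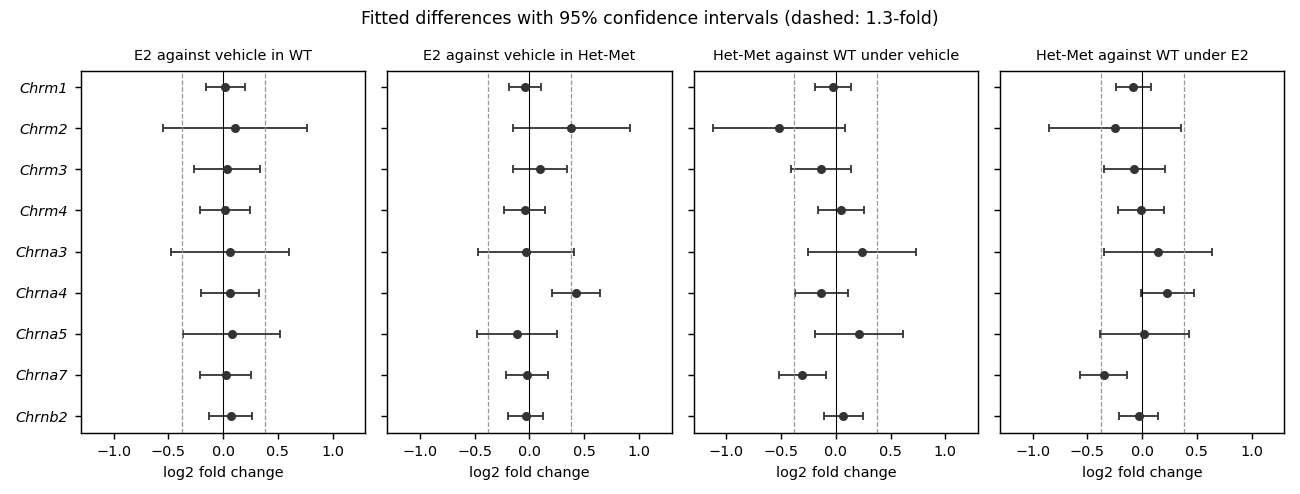
Fitted log2 fold change of each member (points) with its 95% confidence interval (bars) in the 4 pairwise comparisons, with dashed lines at 1.3-fold. The intervals of Chrna7 exclude 0 in both genotype comparisons and that of Chrna4 for E2 in Het-Met mice, before adjustment for the number of genes, and the intervals of Chrm2 are the widest.

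Over the members together, the differences were smaller in the middle than those of all genes in 5 of the 7 comparisons and larger in 2. The median absolute log2 fold change of the 9 members was 0.06 for E2 in OVX WT mice, against 0.08 over all genes, and 0.04 against 0.07 for E2 in OVX Het-Met mice. For genotype it was 0.13 against 0.11 under vehicle, and 0.08 against 0.11 under E2, and over both treatments 0.10 against 0.09. For the interaction it was 0.09 against 0.11, and for E2 over both genotypes 0.02 against 0.05. With E2 in OVX WT mice all 9 members had a log2 fold change above 0, between 0.02 and 0.11, with adjusted p-values of 1.00 throughout (limma), and in OVX Het-Met mice 3 were above and 6 below 0. The summed CPM of the 9 members averaged 534 with vehicle and 545 with E2 in OVX WT mice, and 523 and 526 in OVX Het-Met mice.

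Chrm5, a Gq-coupled receptor known from midbrain dopamine neurons and not one of the members, had a larger log2 fold change in size than any of them. It had 2.45 and 2.53 CPM in OVX WT mice given vehicle and 3.19 and 3.65 in those given E2, and 2.47, 2.88 and 1.86 in OVX Het-Met mice given vehicle and 1.47, 1.15 and 2.04 in those given E2. Under E2 the Het-Met libraries were all below the WT libraries, and under vehicle they overlapped. Under E2 the genotypes did not overlap for 35.8% of all genes, and 14.7% of all genes were lower in this way. The genotype log2 fold change under E2 was -0.95 (standard error 0.21, unadjusted p = 0.000422, adjusted p = 0.265, limma), and the interaction was -0.89 (unadjusted p = 0.00925, adjusted p = 0.566, limma). Chrm5 lies on chromosome 2, 2.75 Mb from Bdnf, overlaps Aven in RefSeq, and had 25 to 85 reads per library. The nearness to the knock-in locus and the genotype difference cannot be told apart by these groups.

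The genes that make, carry and break down acetylcholine were then examined. Of 8 listed, 6 passed the filter, and Chat and the vesicular transporter Slc18a3 did not. Ache, the acetylcholinesterase that ends the signal, had 74.6 and 75.3 CPM in OVX WT mice given vehicle and 64.2 and 66.7 in those given E2, and between 74.2 and 80.4 in all 6 Het-Met libraries. The E2-treated WT libraries were thus the lowest. Under E2, 21.1% of all genes were higher in Het-Met than in WT libraries without overlap. The log2 fold change of Ache between genotypes under E2 was 0.23 (standard error 0.07, unadjusted p = 0.00362, adjusted p = 0.334, limma), and the interaction was 0.22 (unadjusted p = 0.0400, adjusted p = 0.862, limma). The choline transporter Slc44a1 had a genotype log2 fold change of -0.14 over both treatments (unadjusted p = 0.0490, adjusted p = 0.299, limma), and the other 4 genes did not reach an unadjusted p under 0.05 in any comparison.

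Among 10 tested chaperones and modulators of nicotinic receptors, none was called. Lypd1, a membrane-anchored prototoxin that dampens α4β2 receptors, had 14.0 and 13.6 CPM in OVX WT mice given vehicle and 19.0 and 16.4 in those given E2, and 17.4, 16.1 and 16.6 in OVX Het-Met mice given vehicle and 13.1, 14.6 and 15.9 in those given E2. E2 groups were thus higher than vehicle groups in WT and lower in Het-Met mice, without overlap in either. Of all genes, 15.6% were higher in this way in WT mice and 5.11% lower in Het-Met mice. The interaction was -0.54 (standard error 0.16, unadjusted p = 0.00388, adjusted p = 0.415, limma). The summed choroid plexus markers also averaged higher with E2 in WT mice, with 619 CPM for vehicle and 2232 for E2. In Het-Met mice they averaged lower with E2, with 2234 CPM for vehicle and 758 for E2. Their part in the Lypd1 interaction was not tested. The related Lypd6b had 0.35 on the log2 scale for E2 in OVX Het-Met mice (adjusted p = 0.818, limma), and Lypd6 had 0.18 with E2 over both genotypes (adjusted p = 0.999, limma). The chaperone Ric3, needed for the assembly of α7, varied little, between 105 and 118 CPM.

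Of the signalling genes downstream of M1, M3 and M5, 16 were tested. The list was chosen with earlier results of these data known, so its counts are given as a description. Over both treatments 9 of the 16 were lower at an unadjusted p under 0.05, in OVX Het-Met mice, against 7.27% of all genes, 0 were higher, and none was called. Their median log2 fold change was -0.16, against 0.02 for all genes. Under E2 8 were lower at that level, against 5.36%, and under vehicle 3, against 4.83%. Kcnq3, a subunit of the M-current channel, had 30.3 to 37.3 CPM in OVX WT and 15.9 to 27.1 in OVX Het-Met mice, without overlap. This was a difference of -0.57 on the log2 scale (standard error 0.14, adjusted p = 0.120, limma). Of all genes, 1.72% were lower without overlap in this comparison. Dgkb, a diacylglycerol kinase, had 204 to 233 CPM in OVX WT and 169 to 200.0 in OVX Het-Met mice, which gave -0.23 on the log2 scale (standard error 0.06, adjusted p = 0.121, limma). The cation channel Trpc4 differed by -0.31 on the log2 scale between genotypes under E2 (standard error 0.08, adjusted p = 0.317, limma).

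These signalling genes are long, with a median of 303 kb, and 12 of the 16 and 8 of the 9 lower ones exceed 100 kb. With the trend with length removed, 3 of 16 were lower at an unadjusted p under 0.05 and the median log2 fold change was -0.07. By DESeq2, Dgkb (adjusted p = 0.00982) and Trpc5 (adjusted p = 0.0230) reached an adjusted p under 0.05, the latter with a fold change above 1.3, and by edgeR 0 of 16 did.

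Of the genes of M2 and M4 signalling, 20 were tested and none was called. Over both treatments 1 was lower in OVX Het-Met mice at an unadjusted p under 0.05, against 7.27% of all genes, and 0 were higher, against 9.33%, with a median log2 fold change of -0.01. Under vehicle 3 were lower, against 4.83%, and under E2 1 was, against 5.36%. With E2 in OVX Het-Met mice 2 were higher, against 2.82%, and in OVX WT mice 0 differed at that level. The lower one was Kcnj6, a subunit of the inwardly rectifying potassium channel, with 36.2 to 43.2 CPM in OVX WT and 21.2 to 36.6 in OVX Het-Met mice, and its log2 fold change was -0.38 (adjusted p = 0.162, limma). The adenylyl cyclase genes Adcy8, under vehicle, and Adcy5, under E2, had genotype log2 fold changes of -0.36 (adjusted p = 0.357, limma) and -0.25 (adjusted p = 0.356, limma). The 20 genes have a median length of 100 kb, and Kcnj6 spans 249 kb. After removal of the trend with length, 2 of 20 were lower over both treatments at an unadjusted p under 0.05. The median log2 fold change of the list was then 0.02.

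**Figure D4:**
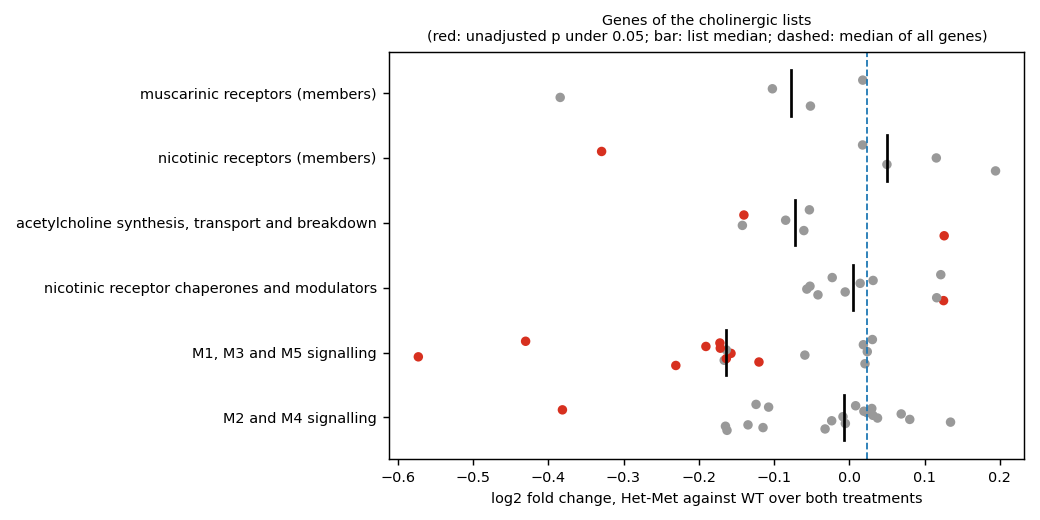
Genotype log2 fold change over both treatments of every tested gene of each list (points, red at an unadjusted p under 0.05), with the list's median (black bar) and the median of all genes (dashed line, 0.02). The median of M1, M3 and M5 signalling lies at -0.16 and that of M2 and M4 signalling at -0.01. With the trend with gene length removed, which is not drawn, these medians are -0.07 and 0.02.

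Across libraries, members were compared with summed marker genes. Chrm1 had a Pearson r of 0.92 and a Spearman rho of 0.85 with the summed excitatory neuron markers over the 10 libraries (r = 0.90 without the 2 libraries farthest from the median), and 0.96 within groups. Camk2a, a kinase gene of excitatory neurons, held 58.3% of that sum, and without it r was 0.35 over the libraries and 0.74 within groups. Chrna4 had an r of 0.75 and a rho of 0.66 with the thalamus markers, r = 0.32 without the 2 farthest libraries and 0.31 within groups. Ntng1 held 36.5% of the thalamus sum, and without it r was 0.63 over the libraries and 0.06 within groups. Chrna7 had an r of 0.24 and a rho of 0.37 with the excitatory neuron markers. Other pairs were also large in size. Chrna7 had an r of -0.44 with the striatum markers and -0.93 within groups. Chrna3 had -0.72 with the medial habenula markers (-0.87 within groups), and Chrnb2 had -0.71 with the oligodendrocyte markers (-0.69 within groups). These points share library preparation, read depth and the constraint that CPM sum to 1000000, and they are given as a description. The genes most alike to Chrna7 over the 10 libraries were Tcaf1 (r = 0.97), Slitrk3 (r = 0.97) and Soga3 (r = 0.95), those most alike to Chrna4 were Galnt7 (r = 0.95), Brinp3 (r = 0.93) and Plcxd2 (r = 0.91), and those most alike to Chrm1 were Per1 (r = 0.96), Iqsec2 (r = 0.95) and Sipa1l3 (r = 0.95).

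**Figure D5:**
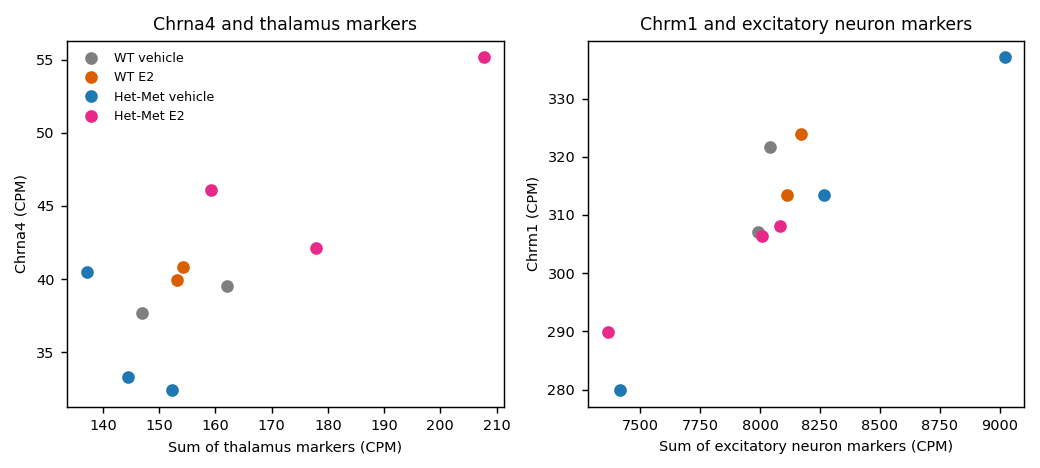
CPM of Chrna4 against the summed CPM of thalamus markers (left) and of Chrm1 against the summed CPM of excitatory neuron markers (right), with 1 point per library colored by group. The library with the highest Chrna4, 55.2 CPM, also has the highest sum of thalamus markers, 208 CPM, and the library with the highest Chrm1, 337 CPM, has the highest sum of excitatory neuron markers, 9020 CPM.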

How the data were processed

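RNA of the vHpc was sequenced as 75-bp single-end reads from stranded libraries. The authors used TopHat2 for alignment to mm10 and deposited gene-level CPM, which sum to 1000000 per library. The annotation and strand setting of the counting are not given in the sources used here. The methods give 3 replicates per group, and 10 libraries were used here. Dividing by the value of 1 read gave back whole reads for 100% of values in every library (tolerance 0.01 of a read). Intervals and limits from reads cover counting error only.

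limma 3.58.1 (R 4.3.3) was fitted to log2(CPM + 0.5) for 15081 genes that averaged 0.5 CPM or more, with 4 group means, empirical Bayes moderation and an intensity trend (residual degrees of freedom 6, prior 8.90). Tests were two-sided and adjusted over all genes tested. Fold changes on this scale understate those of low genes. The p-values measure the spread between pooled libraries. Each marker covariate was the mean of log2(CPM + 0.5) over the markers of its list, so low and high markers weighed alike, unlike in the summed CPM. edgeR 4.0.16 and DESeq2 1.42.0 on the recovered reads were alternatives, and the test was checked on simulated data.

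Gene positions and lengths came from GENCODE vM21 (GRCm38), which matched 23376 symbols directly and 670 by an older symbol, leaving 375 unmatched. The receptor genes, gene lists and markers were chosen with earlier results of these data known. The genes named are the 9 members, the other receptor genes, of each list up to 3 genes with the smallest unadjusted p under 0.05, and up to 3 genes most alike to a member. Trpc5, Chat, Slc18a3, Ric3 and the single marker genes were named after their values were seen. Groups came from the sample labels.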

Additional observations from a re-analysis of the deposited data

Results flagged for a closer look

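Groups of 2 or 3 libraries are too small for a test of single outlying libraries. The effect of E2 differed between genotypes at an unadjusted p under 0.05 for 2 receptor genes, of 15 tested. For Chrna4 the effect in OVX Het-Met mice exceeded that in OVX WT mice by 0.36 on the log2 scale (unadjusted p = 0.0405, adjusted p = 0.865, limma interaction). For Chrm5 the interaction was -0.89 (unadjusted p = 0.00925, adjusted p = 0.566, limma). Neither held after adjustment over all genes, of which 5.42% reached an unadjusted p under 0.05. The summed choroid plexus markers, set beside these, gave values of 151 to 1087 CPM in OVX WT mice given vehicle and 1924 to 2541 in those given E2, and of 1477 to 3275 in OVX Het-Met mice given vehicle and 266 to 1569 in those given E2. On average these sums moved with E2 in opposite directions in the genotypes. The covariate was the mean of log2(CPM + 0.5) over the same markers, not their sum, and is hard to tell apart from an interaction. With the choroid plexus markers as a covariate, the interaction was 0.22 for Chrna4 (unadjusted p = 0.427, limma) and -1.11 for Chrm5 (unadjusted p = 0.0423, limma). With the excitatory neuron markers as a covariate, chosen after seeing the data, it was 0.53 for Chrna4 (unadjusted p = 0.00705, limma) and -0.56 for Chrm5 (unadjusted p = 0.0890, limma), and with the thalamus markers it was -0.78 for Chrm5 (unadjusted p = 0.0906, limma).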

How the results depend on the processing

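At the adjusted p-value and fold limit 0 members were called under every alternative in all 7 comparisons, except that an unadjusted p under 0.05 with the fold limit gave 1 member, Chrna4, for E2 in OVX Het-Met mice (294 genes in all). Leaving out each library in turn gave 0 members in every comparison. Where a group was left with 1 library, that library is assumed to vary like the others. Of the 63 log2 fold changes of the members, 19 kept their sign under all alternatives. The sign differed in 141 of 1478 alternative values, none of them with an unadjusted p under 0.05 in either fit.

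The replicate numbers were not taken to pair the libraries. Deviations of same-numbered libraries had correlations between -0.124 and 0.0162 in 4 pairs within a genotype and between -0.172 and 0.0826 in 8 pairs across genotypes. For libraries with different numbers they were between -0.0407 and 0.122 in 9 pairs and between -0.151 and 0.172 in 16 pairs. In a WT group of 2 libraries the deviations mirror each other, so these values cannot decide whether the libraries are paired. With the replicate block, 0 members were called in each comparison, and the block gave -0.34 for Chrna7 between genotypes over both treatments (adjusted p = 0.130, limma), 0.43 for Chrna4 with E2 in OVX Het-Met mice (adjusted p = 0.730, limma) and 0.34 for the Chrna4 interaction (unadjusted p = 0.0778, limma). Genes called in all moved from 2 to 10 for E2 in OVX WT mice and from 11 to 18 for the interaction, and over all alternatives with an adjusted p they numbered 0 to 16 and 0 to 71. For E2 in OVX Het-Met mice they numbered 0 to 6, for E2 over both genotypes 0 to 5, and for genotype 1 to 38 under vehicle, 0 to 52 under E2 and 1 to 88 over both treatments.

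By the length of the longest transcript in place of all exons, levels were 13.2 CPM per kb for Chrnb2, 8.05 for Chrm3, 7.78 for Chrna7 and 1.96 for Chrna5, the others moved by less than 1 SD, and the order of the members was the same. The thalamus and excitatory neuron covariates were chosen after seeing the data. Reads limit Chrm2 and Chrna3 most.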
